A study of Saccharomyces cerevisiae with 47 samples.

Results

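The genes described here were the 34 proteasome genes of budding yeast, out of 6002 nuclear protein-coding genes, and the measurement was which of them had a listed binding site of the factors Reb1 or Abf1 just upstream. Members were chosen by name, without a cut on any measured value but with earlier results of these data known. They were 14 genes of the 20S core (PRE1 to PRE10, PUP1 to PUP3 and SCL1), 8 of the 19S lid, 10 of the 19S base, the regulator RPN4 and the assembly chaperone RPN14. A member counted as having a site when the centre of a distinct site lay within 500 bp upstream of its start codon.

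The proteasome is the protease that degrades ubiquitin-tagged proteins in the cytosol and nucleus. Its barrel-shaped core is built from rings of alpha subunits, which gate the entry, and rings of beta subunits, some of which cut peptide bonds. The regulatory particle caps the barrel, and its base holds an ATPase ring that unfolds substrates, while its lid carries the enzyme that removes ubiquitin. In yeast the transcription factor Rpn4 activates most proteasome genes and is itself a short-lived substrate of the particle. Reb1 and Abf1 are general regulatory factors, sequence-specific proteins that bind many promoters and help keep them free of nucleosomes.

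The study bound purified Reb1 or Abf1, each with a C-terminal Strep-tag, to chromatin made in vitro from a plasmid library and recombinant yeast histone octamers. The chromatin was crosslinked with 0.05% formaldehyde, digested with MNase and pulled down on Strep-Tactin. Each factor, at 50 nM, was used alone or with the chromatin remodelers INO80, ISW2 or Chd1 at 24 nM or RSC at 12 nM, and controls held neither factor nor remodeler. GEO holds 47 samples of these reactions, 24 from the pulldown and 23 from the input, and no group has more than 2 replicates. All reactions were cell-free, and the labels name no transcription factor other than Reb1 and Abf1, so Rpn4 was not among the added factors they give.

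The values came from 1 list of motif sites per factor, deposited for the series as a whole. The lists held 942 distinct Reb1 sites and 1365 distinct Abf1 sites, each with a position, a strand, a score and up to 5 identical rows. They carried no sample, so remodeler effects, sequencing depth and replicate spread could not be read from them, and the counts below have no replicate error and no test. Neither the score nor the repetition of rows is defined by the submitters' text, so both are given as deposited. According to the series text the DNA came from chromosomes V to IX, which hold 14 of the 34 members, while the lists cover all 16 nuclear chromosomes. Whether DNA of the remaining members was in the reactions is not stated.

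Most proteasome genes had a listed site. Nearly all of those had a site of only 1 of the factors, as did nearly all genes with a site. A Reb1 site lay upstream of 13 of 34 members (38.2%), against 12.5% of all protein-coding genes. An Abf1 site lay upstream of 12 of 34 (35.3%), against 13.5% of all protein-coding genes. Counting either factor, 24 of 34 members (70.6%) had a site, against 24.7% of all genes. RPT1, an ATPase gene of the base, was the 1 member with sites of both factors (2.94% of members), and 1.35% of all genes had both. With a 300 bp window 0 members had both (0.633% of all genes), and with 1000 bp 2 had (3.58% of all genes). Taken over genes with any site, both factors were present at 1 of 24 members (4.17%) and at 81 of 1481 genes in all (5.47%). The 25 sites behind these counts were all different, so no site was counted for more than 1 member. Restricted to sites listed in at least 2 rows, Abf1 members numbered 7 (20.6%), against 10.9% of all genes.

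**Figure D1:**
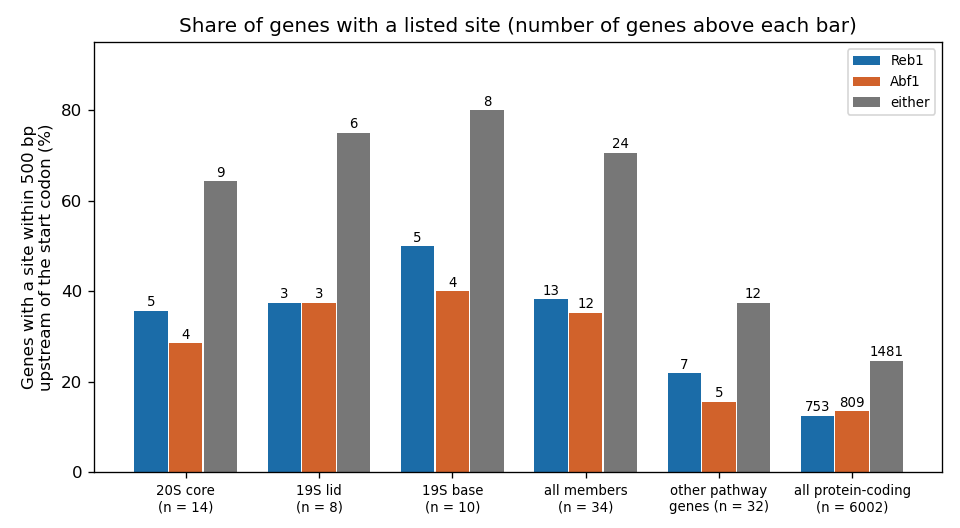
Share of genes (%, vertical axis) with a listed Reb1 site, Abf1 site or site of either within 500 bp upstream of the start codon, for the core, lid and base genes, all 34 members, 32 other genes of the pathway and all 6002 protein-coding genes. Numbers above the bars are genes. Sites of either factor lay at 9 of 14 core, 6 of 8 lid and 8 of 10 base genes, and at 1481 of all genes.

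The core, lid and base each held genes with Reb1 sites and genes with Abf1 sites. Reb1 sites were upstream of 5 of 14 core genes (35.7%), 3 of 8 lid genes (37.5%) and 5 of 10 base genes (50.0%). Abf1 sites were upstream of 4 of 14 core genes (28.6%), 3 of 8 lid genes (37.5%) and 4 of 10 base genes (40.0%). Within the core, alpha-ring genes had 2 Reb1 and 3 Abf1 sites among 7 genes, and beta-ring genes had 3 Reb1 and 1 Abf1. Within the base, Reb1 sites lay at 4 of 6 ATPase genes and at 1 of the 4 RPN genes. A change of 1 or 2 genes would alter the order of these shares, and the differences between subcomplexes were not tested. The core count for Reb1 fell to 3 when the window was 300 bp, when each site was given only to its nearest start codon, or when only scores at or above the list median were used. The share of all genes with a Reb1 site was also lower in these settings, 9.31%, 10.0% and 7.26%, against 12.5%. The base count for Reb1 was also 3 with those scores, the base and core counts for Abf1 were 2 each with sites in at least 2 rows, and the lid count for Abf1 was 1 by nearest start codon. For Abf1 the share of all genes was 10.9% with sites in at least 2 rows and 10.6% by nearest start codon, against 13.5%.

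On the alpha ring, PRE6 had a Reb1 site 144 bp from its start codon (chromosome XV, 255189 to 255198) that scored 11.5 and was listed in 3 rows. PRE9, whose product is the alpha subunit that yeast can live without, had a Reb1 site at 168 bp (chromosome VII, 761220 to 761229) with a score of 13.4 in 2 rows. PRE8 had an Abf1 site at 138 bp (chromosome XIII, 86870 to 86885), with a score of 12.6 in 3 rows. PUP2 and PRE10 each had an Abf1 site 157 bp upstream, and both sites were listed in 1 row. Their positions were chromosome VII, 999290 to 999305, with a score of 13.3, and chromosome XV, 1018896 to 1018911, with a score of 12.7. SCL1 and PRE5 had no listed site within 500 bp.

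On the beta ring, the sites at genes of cutting subunits lay farther out than the other beta-ring sites. PRE3, which encodes the caspase-like subunit, had its Reb1 site 354 bp upstream (chromosome X, 434805 to 434814; score 11.9, 1 row). PRE2, which encodes the chymotrypsin-like subunit, had its Reb1 site 360 bp upstream (chromosome XVI, 731985 to 731994; score 12.6, 5 rows). Both sites lay in divergent promoters and were nearer to the partner gene, 158 bp from the start codon of OST1, an oligosaccharyltransferase gene, and 241 bp from that of RPL11A, a ribosomal protein gene. PUP1, which encodes the trypsin-like subunit, had no site. Among the non-catalytic beta genes, PRE4 had a Reb1 site at 156 bp (chromosome VI, 250018 to 250027) with a score of 13.2 in 3 rows. PRE7 had an Abf1 site at 142 bp (chromosome II, 141098 to 141113), with a score of 11.4 in 5 rows. It was the only one of 12 member sites of Abf1 found in 5 rows, as were 10.5% of all sites in the Abf1 list. PUP3 and PRE1 had none.

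In the lid, RPN11, the deubiquitinase gene, and RPN8, the gene of its binding partner, both had Abf1 sites in divergent promoters. The RPN11 site was 146 bp upstream (chromosome VI, 153240 to 153255; score 12.7, 1 row) and 123 bp from YPI1. The RPN8 site was 210 bp upstream (chromosome XV, 817134 to 817149; score 12.6, 3 rows) and 151 bp from GPN2. The other lid genes encode scaffold subunits, and among them RPN6 had an Abf1 site at 171 bp (chromosome IV, 286859 to 286874; score 12.1, 3 rows). RPN5 had a Reb1 site at the same 171 bp (chromosome IV, 190749 to 190758; score 12.6, 4 rows), 167 bp from NOP14, a ribosome biogenesis gene. RPN3 had a Reb1 site at 160 bp (chromosome V, 196784 to 196793) with the top score of the list, 14.3, in 2 rows. RPN12 had a Reb1 site at 131 bp (chromosome VI, 252370 to 252379) with a score of 12.7 in 2 rows. RPN7 and RPN9 had none.

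In the ATPase ring of the base, 5 of 6 genes had a site. RPT2 and RPT5 had Reb1 sites with the top score of 14.3. They lay 160 bp upstream of RPT2 (chromosome IV, 437883 to 437892; 3 rows) and 180 bp upstream of RPT5 (chromosome XV, 544845 to 544854; 5 rows). RPT4 had the Reb1 site with the lowest score among members, 11.2 in 1 row, at 131 bp (chromosome XV, 813835 to 813844), in a divergent promoter and 145 bp from GCD1, a translation initiation factor gene. RPT3 had the Abf1 site with the lowest score among members, 10.7 in 1 row, at 214 bp (chromosome IV, 1261460 to 1261475). RPT1 had a Reb1 site at 199 bp (chromosome XI, 174010 to 174019; score 11.9, 2 rows) and, 182 bp farther out, an Abf1 site at 381 bp (chromosome XI, 173825 to 173840; score 12.6, 3 rows). That Abf1 site lay inside the coding sequence of the upstream gene AVT3, a vacuolar transporter gene. It was the only one of the 25 member sites inside a protein-coding gene. Over all genes, the site lay inside a protein-coding gene in 4.92% of Reb1 pairs and 11.2% of Abf1 pairs. RPT6 had none.

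Among the other base genes, RPN1, a scaffold that also receives ubiquitin carriers, had an Abf1 site at 159 bp (chromosome VIII, 164863 to 164878; score 15.2, 2 rows). It ranked 14 of 1365 in the Abf1 list, higher than any other member site of that factor. RPN2, the other scaffold gene, had a Reb1 site at 168 bp (chromosome IX, 220864 to 220873; score 12.9, 2 rows). RPN13, a ubiquitin receptor gene, had an Abf1 site at 132 bp (chromosome XII, 965685 to 965700; score 12.2, 1 row), 205 bp from the divergent gene DCK1. RPN10, the gene of another ubiquitin receptor, had none within the window. RPN4 had an Abf1 site 355 bp upstream (chromosome IV, 417056 to 417071; score 14.1, 3 rows), which ranked 114 of 1365, and its nearest upstream Reb1 site was 21179 bp away. RPN14 had none.

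**Figure D2:**
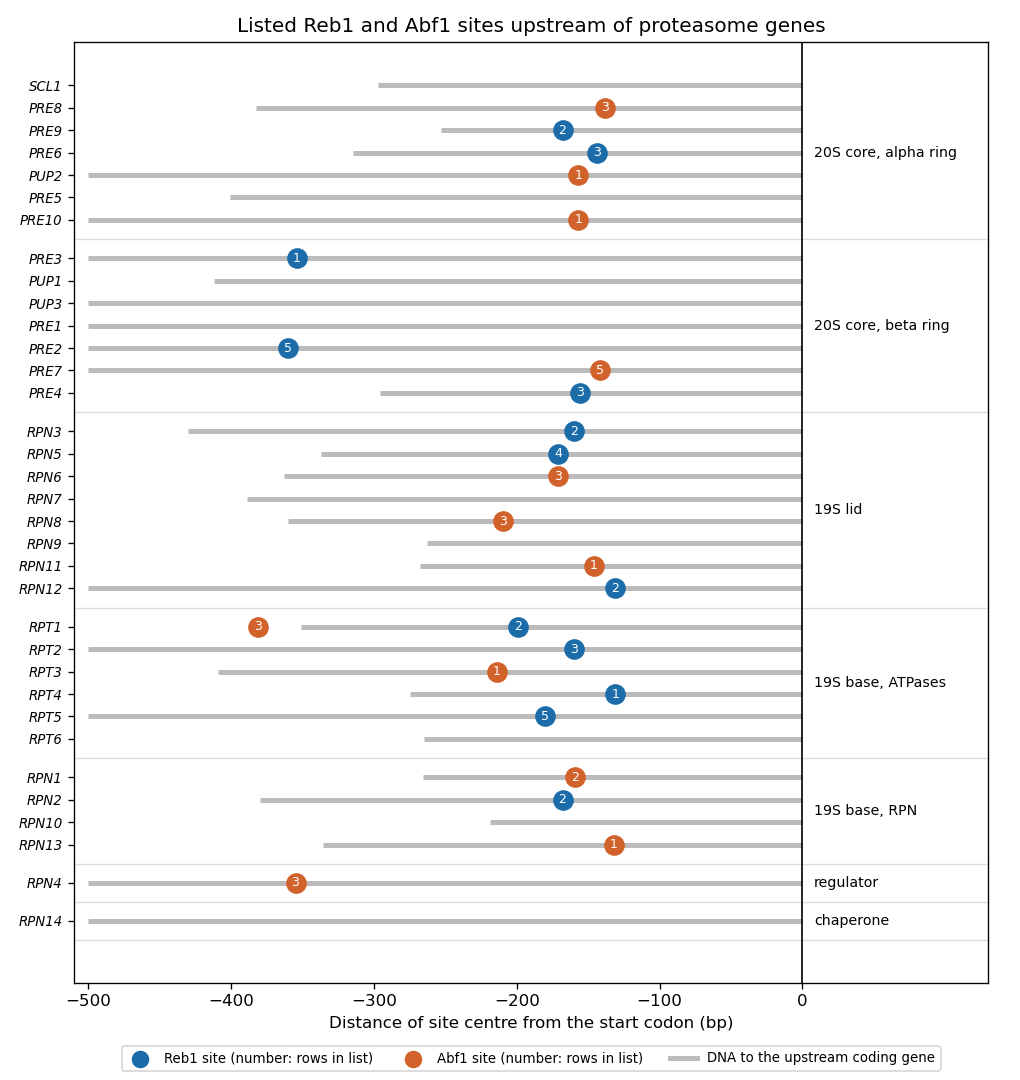
Each of the 34 members is a row, and circles mark listed Reb1 and Abf1 sites by the distance of their centre from the start codon (bp, horizontal axis, start codon at 0), with the number of identical rows inside. Grey lines show DNA up to the upstream coding gene, drawn to at most 500 bp. Of 25 sites, 21 lay between 131 and 214 bp and the other 4 between 354 and 381 bp.

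Most member sites lay in the same stretch of the promoters. Of the 25 sites, 21 lay 131 to 214 bp from the start codon, and the other 4 lay at 354 to 381 bp, at PRE3, PRE2, RPN4 and RPT1. The limits of 131 and 214 bp are the smallest and largest member distances under 300 bp. The share of all pairs between these limits was not counted. Closer than 100 bp lay 0 member sites, but few pairs over all genes lay there. In the 50 bp bins starting at 0 and 50 bp were 0.984% and 1.60% of all Reb1 pairs. For Abf1 pairs these shares were 1.30% and 1.94%. At least 100 and under 200 bp from the start codon lay 11 of 13 Reb1 sites (84.6%), against 48.0% of the 813 gene and site pairs over all protein-coding genes. For Abf1 it was 8 of 12 (66.7%), against 44.0% of 926 pairs. Counted by gene, 11 of 34 members had a Reb1 site in that stretch, against 6.33% of all genes, and 8 of 34 an Abf1 site, against 6.38%. The median distance was 168 bp for Reb1 members (interquartile range 156 to 180, n = 13) and 198 bp for all genes (149 to 320). For Abf1 it was 158 bp (145 to 211, n = 12) and 212.5 bp (153 to 340). The interquartile ranges of members and all genes overlapped for both factors, and the differences in distance were not tested.

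**Figure D3:**
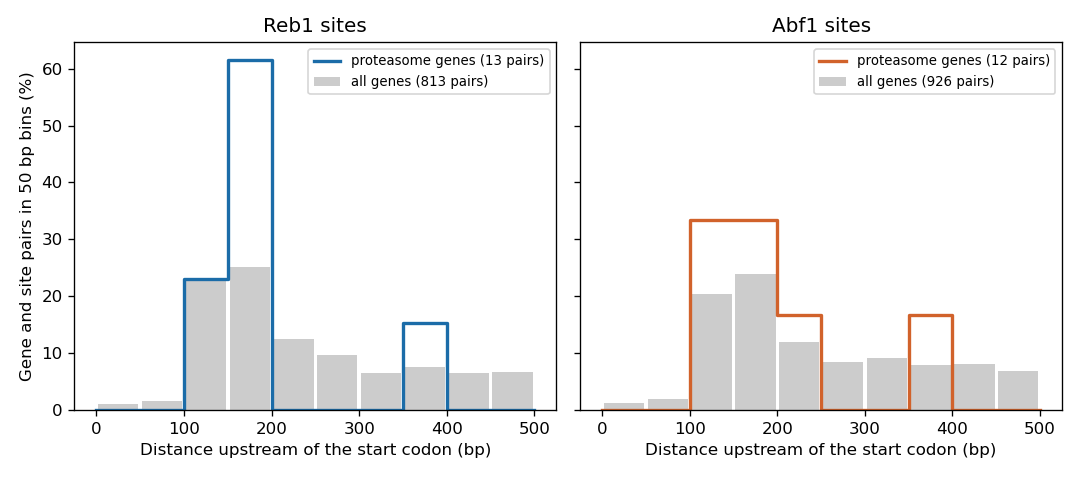
Percent of gene and site pairs (vertical axis) in 50 bp bins of distance upstream of the start codon (horizontal axis, bp), with grey bars for all protein-coding genes and coloured outlines for the proteasome genes. The members' Reb1 sites fell in the bins from 100 to 200 bp except at PRE3 and PRE2, and their Abf1 sites in those from 100 to 250 bp except at RPN4 and RPT1.

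Members with and without a site had overlapping promoter lengths. The DNA between the start codon and the upstream protein-coding gene had a median length of 381.5 bp in the 24 members with a site (253 to 1786 bp) and 395 bp in the 10 without (219 to 1822 bp). Its median was 386 bp over all members and 448 bp over all genes. The shortest was 219 bp over all members but 0 bp over all genes. The shares of members and of all genes with a site were not matched for this length. A divergent upstream neighbour was present at 21 of 34 members (61.8%), against 52.0% of all genes. A site of either factor lay at 14 of 21 divergent members (66.7%), against 27.4% of all divergent genes, and at 10 of 13 tandem members (76.9%), against 21.8% of all tandem genes. Reb1 sites lay at 8 of 21 divergent members (38.1%), against 14.1% of all divergent genes, and at 5 of 13 tandem members (38.5%), against 10.9%. Abf1 sites lay at 6 of 21 divergent members (28.6%), against 15.0%, and at 6 of 13 tandem members (46.2%), against 11.8%.

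Some of these sites could be assigned to a neighbouring gene as well. Of the 25 member sites, 9 also lay within 500 bp upstream of a divergent partner. The proteasome gene was the nearer of the pair at 4 of them, RPN13, RPT4, RPN6 and PRE6, and the partner was nearer at 5, RPN11, RPN8, RPN5, PRE3 and PRE2. Sites shared between genes also occurred over all protein-coding genes, where 641 Reb1 sites made 813 gene and site pairs and 716 Abf1 sites made 926. Those pairs count genes of any orientation, so they are not a like measure. The share of all sites that also lay upstream of a divergent partner was not counted, so the 9 of 25 has no such share beside it. At RPN5 and RPT4 the distances to the start codons of the pair differed by little, 171 against 167 bp and 131 against 145 bp. Other members with a divergent neighbour had the site far from it, such as PUP2, 1630 bp from the glycolytic gene ENO1, and RPT5, 704 bp from RPO31, an RNA polymerase III gene. Next to RPT2 the closest annotated feature was a tRNA gene, with 193 bp between it and the start codon, so the Reb1 site at 160 bp lay between them.

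Proteasome genes that neighbour each other on the chromosome had sites of the same or of different factors. PRE4 and RPN12 lie on either side of RET2, a coatomer gene, on chromosome VI, and both had Reb1 sites. A further Reb1 site, 555 bp from RPN12 (chromosome VI, 251946 to 251955; score 12.9, 4 rows), lay between RPN12 and RET2. RPT4 and RPN8 lie on either side of GCD1 on chromosome XV, and RPT4 had a Reb1 site while RPN8 had an Abf1 site.

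Scores of member sites spread over most of each list. The 13 Reb1 sites scored 11.2 to 14.3 with a median of 12.7, and the pairs over all genes had a median of 12.6. The 12 Abf1 sites scored 10.7 to 15.2 with a median of 12.6, equal to 12.6 over all genes at this precision. At or above the median score of their list were 9 of 13 Reb1 sites (69.2%), against 56.2% of all Reb1 pairs, and 10 of 12 Abf1 sites (83.3%), against 65.4% of all Abf1 pairs. The top Reb1 score was shared by 39 sites of the list, and such a site lay upstream of 3 members, RPN3, RPT2 and RPT5, and of 0.666% of all genes. Those 3 sites were listed in 2, 3 and 5 rows, so an equal score did not go with an equal number of rows.

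Member sites stood in 1 to 5 rows, and the shares below were not tested against those of all genes. At least 3 rows held 6 of 13 Reb1 sites (46.2%), against 58.5% of all Reb1 pairs, and 6 of 12 Abf1 sites (50.0%), against 63.0% of all Abf1 pairs. Counted by gene, 6 of 34 members had such a Reb1 site, against 7.03% of all genes, and 6 of 34 such an Abf1 site, against 8.16%. In 1 row stood 2 of 13 Reb1 sites (15.4%, against 14.4%), those of PRE3 and RPT4. For Abf1 it was 5 of 12 (41.7%, against 18.1%), those of PUP2, PRE10, RPN11, RPN13 and RPT3. In 5 rows stood 2 of 13 Reb1 sites, those of PRE2 and RPT5, against 206 of 813 Reb1 pairs over all genes. For Abf1 it was 1 of 12, that of PRE7, against 119 of 926 pairs. The site of PRE7 scored below the list median and that of PUP2 above it, so row number and score did not order the Abf1 sites in the same way.

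**Figure D4:**
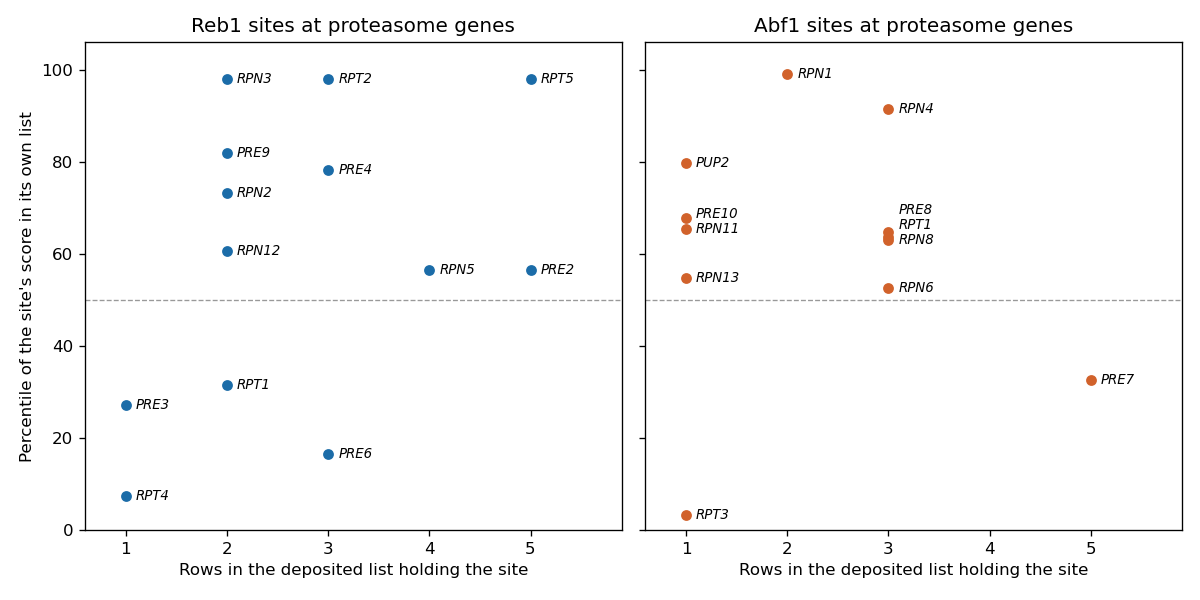
Percentile of each member site's score within its own list (vertical axis, dashed line at 50) against the number of identical rows in which the site was listed (horizontal axis), for 13 Reb1 and 12 Abf1 sites. RPN3, RPT2 and RPT5 share the top Reb1 score at 2, 3 and 5 rows, and the 5 Abf1 sites in 1 row range from RPT3 to PUP2 in score.

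Motif matches lay on both strands relative to the gene. Reb1 sites were on the strand of the proteasome gene at 5 of 13 (38.5%), against 47.2% of all Reb1 pairs, and Abf1 sites at 7 of 12 (58.3%), against 49.8%. In the core, 1 of 5 Reb1 sites was on the gene's strand, that of PRE6, and in the base 3 of 5 were, those of RPT2, RPT4 and RPN2.

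The 10 members without a site were SCL1, PRE5, PUP1, PUP3, PRE1, RPN7, RPN9, RPT6, RPN10 and RPN14. RPN10 missed the window by little, with an Abf1 site 505 bp upstream inside the neighbouring gene NBL1, while the outermost site that counted was that of RPT1 at 381 bp. PRE1 had an Abf1 site at 783 bp and 1 site of each factor inside its own coding sequence. RPN14, and RPN5 among the members with a site, each had 1 Abf1 site inside the gene's own coding sequence. RPT5 had further Abf1 sites at 514 and 532 bp, so that with 1000 bp upstream it too had both factors. For the other 8 members without a site the nearest upstream site of either list was 1966 bp (RPT6) to 12054 bp (PUP3) away.

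On chromosomes V to IX, 8 of 14 members had a site (57.1%), against 24.0% of the 1465 genes there. Reb1 sites lay at 5 of 14 (35.7%, against 13.3%), namely PRE9, PRE4, RPN3, RPN12 and RPN2. Abf1 sites lay at 3 of 14 (21.4%, against 11.8%), namely PUP2, RPN11 and RPN1. Over all 34 members the shares were 70.6% for either factor, 38.2% for Reb1 and 35.3% for Abf1. Each of these was higher than on chromosomes V to IX, and the differences were not tested.

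Other genes of the pathway, which assemble, bind or feed the proteasome, were counted by the same rule. Of 32 such genes, 7 had a Reb1 site (21.9%, against 12.5% of all genes) and 5 an Abf1 site (15.6%, against 13.5%), and 0 had both. Their difference from the 34 members was not tested. Among 8 assembly chaperone genes, 2 had a Reb1 site, NAS6 at 117 bp (score 12.8) and POC4 at 139 bp (score 11.5), and 0 had an Abf1 site. ECM29, which encodes a protein that binds core and regulatory particle, had a Reb1 site at 159 bp with the top score of 14.3. BLM10, a gene of an alternative cap, had a Reb1 site at 257 bp (score 13.4). UBP6, the gene of a proteasome-bound deubiquitinase, had an Abf1 site at 172 bp (score 13.7). UBA1, the ubiquitin-activating enzyme gene, had an Abf1 site at 148 bp (score 11.6), and UBR2, the gene of a ubiquitin ligase for Rpn4, had one at 287 bp (score 12.5). NPL4 and UFD4 had Reb1 sites at 130 and 207 bp, and RAD23 had an Abf1 site at 304 bp. UBR1 and UBI4 had sites near the edge of the window, at 496 bp for Reb1 and 500 bp for Abf1. SEM1, which encodes a small lid subunit outside the 34 members, had none.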

How the data were processed

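Each list was deposited for the whole series as 6 columns without a header: chromosome, start, end, name, score and strand. The authors gave the score no definition, and its values were used as deposited. The file names mention in vitro ChIP, PWM (position weight matrix) and peaks, without saying how these were combined. Bowtie, sacCer3 and R64 appear in the submitters' processing notes, with no role stated. How peaks were called, at which threshold and from which samples is not stated.

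Groups were taken from titles. For replicate 2 of the Reb1 pulldowns and replicate 1 of the Abf1 pulldowns, the file name in the description names the other factor.

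Identical rows were counted as 1 site (2808 Reb1 rows gave 942 sites and 3699 Abf1 rows gave 1365), with the number of rows kept. Sites were placed by centre against an R64 RefSeq table of 6431 nuclear genes. Its gene models were coding extents, and gene strand came from the last letter of systematic names. Whether deposited starts count from 0 or 1 is not stated, so distances are uncertain by 1 bp. Motif sequences, including the planned search for the Rpn4 element, were not analysed here. All 34 members and all 32 other pathway genes were matched by symbol or synonym. Every member was named with its sites, or as having none.

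The members and lists were chosen with earlier results of these data known. No test was made: the lists hold no samples, and genes are not replicates. The window rule was tested on simulated data. Python 3.11.15, numpy 2.4.6, pandas 2.3.3 and matplotlib 3.10.9 were used.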

Additional observations from a re-analysis of the deposited data

How the results depend on the processing

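The counts were repeated under 8 other settings and without RPN4 and RPN14, a setting added after seeing the data. Values within 1.5 times the main count, and medians within 1 SD over sites, made up 95 of 117 repeats of the summary values. This limit was wide for the medians, and all their repeats met it. The SD of member distances was 76.0 bp for Reb1 and 84.2 bp for Abf1, wider than the gaps between member and all-gene medians. Leaving out RPN4 and RPN14 could not change the core, lid, base or pathway counts. The 95 of 117 is therefore no measure of how stable the results are. No paired analysis was possible because the lists carry no samples, and for the same reason no replicate could be left out. With 300 bp upstream, 0 members had both factors (0.633% of all genes) and 3 core genes had a Reb1 site. With 1000 bp 2 members had both (3.58% of all genes). The share of all genes with a Reb1 site was 9.31% at 300 bp and 16.3% at 1000 bp, against 12.5% at 500 bp. With scores at or above the list median, 0 members had both (0.417% of all genes), and 3 core genes and 3 base genes had a Reb1 site (7.26% of all genes). Sites listed in at least 2 rows left 7 members with an Abf1 site, 2 of them core and 2 base genes (20.6% of members, against 10.9% of all genes). Without sites inside coding genes 0 members had both (1.10% of all genes). Giving each site to its nearest start codon left 3 core genes with a Reb1 site (10.0% of all genes) and 1 lid gene with an Abf1 site (10.6% of all genes). Chromosomes V to IX alone hold fewer members, 14, and gave 5 with Reb1 (13.3% of all genes there), 3 with Abf1 (11.8%), 8 with either (24.0%) and 0 with both (1.16%). There the core had 2 Reb1 and 1 Abf1 genes, the lid 2 Reb1 and 1 Abf1 genes, and the base 1 Reb1 and 1 Abf1 gene. Core genes there were SCL1, PRE9, PUP2, PUP3, PRE1 and PRE4. The lid genes were RPN3, RPN11 and RPN12, and the base genes RPT6, RPN1, RPN2 and RPN10. On the same chromosomes 6 other pathway genes had a site (24.0% of all genes there). How many of the 32 pathway genes lie there was not counted, so this number gives no share. These counts leave out the genes on other chromosomes, so they are not losses of sites. The search for the Rpn4 element and its shorter form was not run.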
